A study of Arabidopsis thaliana with 9 samples.

Results

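Oleosins and late embryogenesis genes of Arabidopsis thaliana were followed in heated seedlings, 9 loci among the 27218 genes of the deposited table. They are the seed oleosins OLEO1 (AT4G25140), OLEO2 (AT5G40420) and OLEO4 (AT3G27660), the caleosin CLO1 (AT4G26740), the late embryogenesis abundant (LEA) genes EM1 (AT3G51810), EM6 (AT2G40170) and M17 (AT2G41260), the vicilin-type storage globulin PAP85 (AT3G22640), and ABI3 (AT3G24650), a transcription factor of seed maturation. The set was selected on the level of these loci in the libraries described here, with earlier results of these data in view. Their levels and differences are therefore a description in all 3 pairs of genotypes. Test calls on them are printed below as part of that description and are no evidence for a difference. Each of 3 genotypes gave 3 RNA sequencing libraries of whole seedlings: SR45a-1a-OE, which overexpresses SR45a-1a, the sr45a mutant, and wild type (WT). SR45a encodes a serine/arginine-rich splicing regulator. Every library, WT included, came from 2-week-old seedlings that had been held at 45 °C for 3 h, so no unheated level is available here. The promoter of the overexpression construct, the lesion in sr45a, and whether the numbers 1 to 3 stand for separate lines, plates or repeated samples are not stated in the labels. P-values here thus reflect no more than the scatter of these libraries, and that scatter may be technical.

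Oleosins are small proteins with a long hydrophobic hairpin that coat the oil bodies of seeds and keep them from fusing, and caleosins are calcium-binding proteins of the same surface. LEA proteins are hydrophilic proteins that accumulate as the embryo dries, and vicilin-type globulins are stored in its protein bodies. In the maturing seed ABI3 acts with the B3 factors FUS3 and LEC2 and with abscisic acid signalling to switch such genes on, and after germination chromatin repressors keep them silent in the seedling.

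The bases just upstream of 4 of the genes are shown because they carry the letters that seed regulators are known to bind. RY (CATGCA, either strand) is the element of B3 factors such as ABI3 and FUS3, and ACGTG (either strand) is the core of the abscisic acid response element, bound by bZIP factors such as ABI5. Each run is the 250 bases before the annotated start, 5′ to 3′ on the gene's own strand, read from the TAIR10.1 RefSeq genome, with matches to RY and ACGTG in capitals. The deposited coordinates of all 9 genes equal TAIR10.1 at both ends. The positions of these upstream bases are chr4:12900180-12900429 (plus strand) for OLEO1, chr3:8013942-8014191 (minus) for PAP85, chr3:19214472-19214721 (plus) for EM1 and chr2:16780369-16780618 (minus) for EM6.
OLEO1: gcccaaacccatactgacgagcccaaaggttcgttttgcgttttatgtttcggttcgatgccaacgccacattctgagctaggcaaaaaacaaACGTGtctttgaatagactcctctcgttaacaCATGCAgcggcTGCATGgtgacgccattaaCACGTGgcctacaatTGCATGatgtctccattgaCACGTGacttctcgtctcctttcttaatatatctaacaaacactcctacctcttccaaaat
PAP85: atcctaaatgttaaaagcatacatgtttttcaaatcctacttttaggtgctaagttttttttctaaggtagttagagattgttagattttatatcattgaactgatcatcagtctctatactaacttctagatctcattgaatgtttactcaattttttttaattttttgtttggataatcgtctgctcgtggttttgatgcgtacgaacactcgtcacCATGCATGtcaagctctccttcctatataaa
EM1: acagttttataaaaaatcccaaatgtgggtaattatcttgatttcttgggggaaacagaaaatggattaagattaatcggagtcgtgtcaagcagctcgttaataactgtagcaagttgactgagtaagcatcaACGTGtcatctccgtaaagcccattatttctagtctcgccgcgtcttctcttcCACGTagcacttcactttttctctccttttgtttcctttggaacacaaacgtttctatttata
EM6: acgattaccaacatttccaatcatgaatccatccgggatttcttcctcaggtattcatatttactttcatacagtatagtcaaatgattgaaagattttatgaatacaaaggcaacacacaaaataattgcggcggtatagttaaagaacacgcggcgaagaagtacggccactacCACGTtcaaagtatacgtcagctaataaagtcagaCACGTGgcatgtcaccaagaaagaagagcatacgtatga

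OLEO1 holds both kinds of letters, PAP85 holds RY only, and EM1 and EM6 hold the ACGTG core only. In a window of 300 bases, from 250 before to 50 after the start, RY was found at 4 of the 8 genes examined, OLEO1, OLEO4, CLO1 and PAP85, and at 9.7% of 26958 promoters. ACGTG was found at 4 of the 8, OLEO1, CLO1, EM1 and EM6, and at 27.0% of promoters. Its palindromic form CACGTG, the G-box, which counts as an ACGTG match on each strand, was found at OLEO1 and EM6 and at 7.9% of promoters. The heat shock element pair GAANNTTC was found at 0 of the 8 and at 11.5% of promoters. M17 and ABI3 matched none of these letters. With the 250 bases before the start alone, the numbers of genes were the same and the shares were 8.5% for RY, 23.0% for ACGTG, 6.6% for CACGTG and 9.6% for GAANNTTC. A match is a run of letters and was not measured as a binding site.

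The libraries held 18036195 to 21864604 gene counts, so 1 count was worth 0.0457 to 0.0554 CPM before scaling (CPM are counts scaled to a common library size and by a normalization factor). SR45a itself had 1173, 1099 and 1010 CPM in the SR45a-1a-OE libraries, 1.9, 4.55 and 7.27 CPM in sr45a and 433, 401 and 420 CPM in WT. On the first principal component of all tested genes, which held 36.6% of the variance, replicate 3 of SR45a-1a-OE lay at −16.21 against −48.28 and −47.02 for the other SR45a-1a-OE libraries, and replicate 3 of sr45a lay at −4.704 against 25.35 and 22.24. The WT libraries lay together at 20.87 to 25.27. Summed over 5 leaf markers, the level was 25350–28054 CPM in SR45a-1a-OE, 24211–27487 CPM in sr45a and 21263–23849 CPM in WT. The 5 seed coat markers summed to 12.2–15.8 CPM in SR45a-1a-OE, 14.4–17.4 CPM in sr45a and 15.3–16.4 CPM in WT. Nearly all of this came from MUM4, while BAN, a tannin synthesis gene of the seed coat, had 1 count in SR45a-1a-OE, 5 counts in sr45a and 0 counts in WT. BAN is named after its values were seen, and the counts of the other seed coat markers, TT12, TT10 and TT8, are not given here.

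All 9 genes were rare transcripts. Summed over the 9, SR45a-1a-OE libraries held 213, 170 and 102 counts and sr45a libraries held 522, 289 and 202, against 82, 81 and 69 in WT. Scaled to CPM, the sums were 10.6, 7.87 and 4.73 in SR45a-1a-OE and 24.1, 15.3 and 10.1 in sr45a, against 3.63, 3.72 and 3.2 in WT. Both other genotypes were above WT in every library, and the highest SR45a-1a-OE library lay just above the lowest sr45a library. Even the highest sum, in sr45a replicate 1, was 0.00241% of that library's counts. In whole seedlings, more cells that express a gene and more of its RNA in each cell cannot be told apart.

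**Figure D1:**
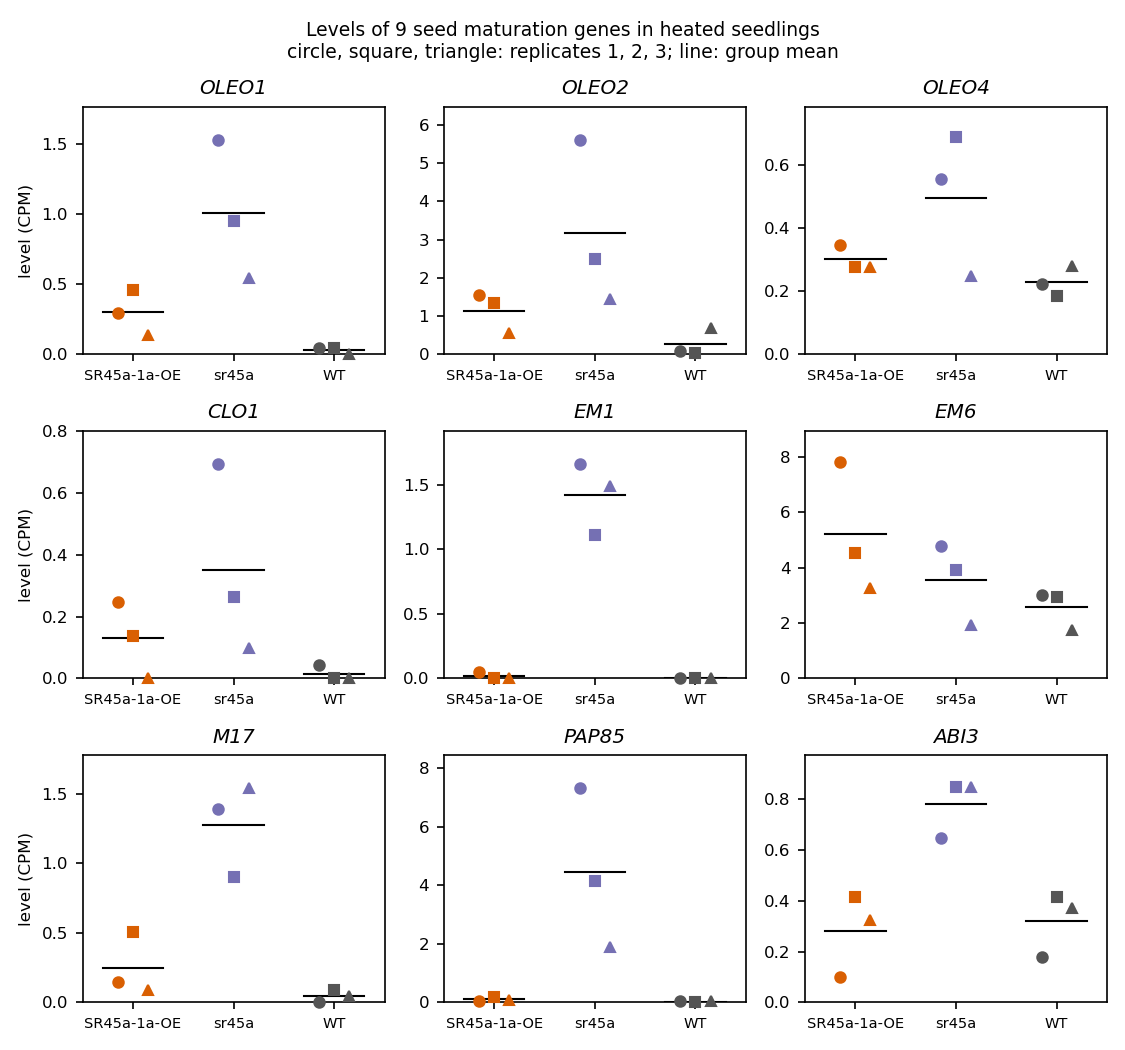
Level of each of the 9 genes in CPM (vertical axes, each panel on its own scale from 0) in the 3 libraries of SR45a-1a-OE, sr45a and WT, with a line at the group mean. The sr45a points lie above all WT points for 7 genes, while those of OLEO4 and EM6 overlap with WT.

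On average the oil body genes were highest in sr45a and lay between sr45a and WT in SR45a-1a-OE. OLEO1, the major small oleosin of seeds (chromosome 4, 12900430–12901577, plus strand, 2 exons), had 6, 10 and 3 counts in SR45a-1a-OE and 33, 18 and 11 counts in sr45a, against 1, 1 and 0 counts in WT. The 3 groups were fully apart, in the order sr45a, SR45a-1a-OE, WT. Its mean level was 0.3 ± 0.162 CPM in SR45a-1a-OE, 1.01 ± 0.492 CPM in sr45a and 0.0301 ± 0.0261 CPM in WT (SD, n = 3 each). The ratio of pooled counts, scaled for depth, was 33.7 for sr45a over WT (95% exact binomial interval 8.94–284) and 9.89 for SR45a-1a-OE over WT (2.39–87.5). These intervals, like all intervals on pooled counts here, cover counting error only.

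OLEO2, another major seed oleosin (chromosome 5, 16173340–16174783, minus strand, 2 exons), had 31, 29 and 12 counts in SR45a-1a-OE and 121, 47 and 29 counts in sr45a, against 2, 1 and 15 counts in WT. All sr45a libraries were above all WT libraries, but the lowest SR45a-1a-OE library (0.557 CPM) was under the highest WT library, replicate 3 (0.697 CPM). The level averaged 1.15 ± 0.52 CPM in SR45a-1a-OE, 3.18 ± 2.16 CPM in sr45a and 0.277 ± 0.364 CPM in WT (SD, n = 3 each). On the log2 scale the fitted difference was 3.51 (SE 0.73) for sr45a minus WT and 2.04 (SE 0.8) for SR45a-1a-OE minus WT. The gene shares 15 bases with AT5G40410 on the other strand, and OLEO1 shares 44 bases with AT4G25150; whether the counting used strand was not given, so reads in those stretches cannot be assigned.

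OLEO4, a further oleosin of the seed (chromosome 3, 10243244–10245023, plus strand), had 7, 6 and 6 counts in SR45a-1a-OE and 12, 13 and 5 counts in sr45a, against 5, 4 and 6 counts in WT. Its groups overlapped in both comparisons with WT, and the pooled ratio was 2.17 for sr45a over WT (1.13–4.35) and 1.32 for SR45a-1a-OE over WT (0.635–2.79). CLO1, the seed caleosin that the annotation lists as ATS1 (chromosome 4, 13473516–13475371, minus strand, 6 exons), had 5, 3 and 0 counts in SR45a-1a-OE and 15, 5 and 2 counts in sr45a, against 1, 0 and 0 counts in WT. Its sr45a libraries were all above WT, although replicate 3 held 2 counts against 1 in WT replicate 1. The pooled ratio was 23.9 for sr45a over WT, with an interval of 3.86–987 because WT held 1 count in all. OLEO4 and CLO1 did not pass the filter on low counts and were not tested.

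Among the LEA genes, EM1 was counted almost only in sr45a. EM1, a group 1 LEA gene (chromosome 3, 19214722–19215831, plus strand), had 1, 0 and 0 counts in SR45a-1a-OE and 36, 21 and 30 counts in sr45a, against 0 counts in every WT library. Set against a floor of 3 counts over the WT group, its level was at least 31.5-fold higher in sr45a than in WT. No fold is given for SR45a-1a-OE over WT, since both were under that floor.

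EM6, the other group 1 LEA gene, listed as GEA6 (chromosome 2, 16779552–16780368, minus strand, 2 exons), was present in every library and had the highest FPKM of the 9 in WT. It had 157, 98 and 70 counts in SR45a-1a-OE and 103, 74 and 39 counts in sr45a, against 68, 64 and 38 counts in WT. Its level averaged 5.2 ± 2.35 CPM in SR45a-1a-OE, 3.54 ± 1.45 CPM in sr45a and 2.57 ± 0.701 CPM in WT (SD, n = 3 each), so EM6 alone was highest on average in SR45a-1a-OE. The lowest SR45a-1a-OE library (3.25 CPM) was just above the highest WT library (3.01 CPM), while sr45a and WT overlapped. The fitted log2 difference was 0.46 (SE 0.38) for sr45a minus WT and 1.01 (SE 0.37) for SR45a-1a-OE minus WT.

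M17, a seed maturation gene grouped here with the LEA genes (chromosome 2, 17206452–17207698, plus strand), had 3, 11 and 2 counts in SR45a-1a-OE and 30, 17 and 31 counts in sr45a, against 0, 2 and 1 counts in WT. On CPM the 3 groups did not overlap, but the lowest SR45a-1a-OE library and the highest WT library each held 2 counts. On FPKM these 2 libraries stood the other way, at 0.0806 in SR45a-1a-OE and 0.0813 in WT, so SR45a-1a-OE and WT overlapped. The pooled ratio was 28.3 for sr45a over WT (9.32–140) and 5.55 for SR45a-1a-OE over WT (1.59–29.7). For M17 the deposited transcript estimates did not follow the gene counts. For single-transcript genes of 500 or more counts the median was 3.903 estimate units per count, but for M17 in sr45a it was 2.77, 1.12 and 1.03 units per count. The annotated isoform AT2G41260.1 carried 26 units in sr45a replicate 1 and 0 units in the other 8 libraries, and AT2G41260.2 carried 57, 19 and 32 units in sr45a.

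The storage globulin PAP85 had the highest pooled ratio of sr45a over WT among the 8 genes with a count in WT. PAP85 (chromosome 3, 8011724–8013941, minus strand, 5 exons) had 1, 4 and 2 counts in SR45a-1a-OE and 158, 78 and 38 counts in sr45a, against 1, 0 and 1 counts in WT. It averaged 0.109 ± 0.0691 CPM in SR45a-1a-OE, 4.44 ± 2.72 CPM in sr45a and 0.0302 ± 0.0262 CPM in WT (SD, n = 3 each). The pooled ratio was 149 for sr45a over WT (40.8–1240). The lowest SR45a-1a-OE library and 2 WT libraries each held 1 count, and the pooled ratio of SR45a-1a-OE over WT was 3.64, with an interval of 0.694–35.9 that includes 1.

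ABI3, the regulator of the set (chromosome 3, 8997370–9001185, plus strand, 6 exons), had 2, 9 and 7 counts in SR45a-1a-OE and 14, 16 and 17 counts in sr45a, against 4, 9 and 8 counts in WT. The sr45a libraries lay above all others, and SR45a-1a-OE and WT overlapped. Its level averaged 0.28 ± 0.163 CPM in SR45a-1a-OE, 0.78 ± 0.115 CPM in sr45a and 0.321 ± 0.126 CPM in WT (SD, n = 3 each). The fitted log2 difference was 1.27 (SE 0.45) for sr45a minus WT. For SR45a-1a-OE minus WT it was −0.17 (SE 0.52) and was positive under 2 of the other settings.

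Of the 9 genes, 7 passed the filter on low counts. OLEO1, EM1, M17, PAP85 and ABI3 passed it only through their sr45a libraries, so they could hardly be called lower in sr45a. The set was named with these differences known, so nothing is read from the counts that follow. In sr45a against WT, edgeR's quasi-likelihood test with Benjamini-Hochberg adjustment over 20103 genes put OLEO1, OLEO2, EM1, M17 and PAP85 past the threshold of 0.05, 5 of 7, all higher; of all tested genes 0.861% were called higher and 0.761% lower. The libraries of sr45a were all above those of WT for 7 of the 9, and for 6 of the 7 tested, against 11.3% of tested genes. In SR45a-1a-OE against WT only OLEO1 was called, where 6.76% of tested genes were called higher and 8.59% lower. On CPM, OLEO1, EM6, M17 and PAP85 did not overlap, as was so upward for 16.9% of tested genes, but M17 overlapped on FPKM. The OLEO1 call was lost when any WT library, SR45a-1a-OE replicate 1 or 2, or sr45a replicate 2 was left out. In SR45a-1a-OE against sr45a, EM1, M17 and PAP85 were called lower, where 4.45% of tested genes were and 2.81% were called higher, and these with OLEO1 and ABI3 did not overlap, as was so downward for 13.4%. The pooled ratio of SR45a-1a-OE over sr45a was 0.294 for OLEO1, 0.35 for OLEO2, 0.607 for OLEO4, 0.348 for CLO1, 0.011 for EM1, 0.196 for M17, 0.0245 for PAP85 and 0.367 for ABI3. Only EM6 was higher in SR45a-1a-OE than in sr45a, with a ratio of 1.44. The 3 comparisons share libraries pairwise, so their values are not independent of each other.

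Leaving out replicate 3 of SR45a-1a-OE and of sr45a, an alternative added after the data were seen, all 9 genes were above WT without overlap in sr45a and 6 were in SR45a-1a-OE, and 8 were lower in SR45a-1a-OE than in sr45a. Of the 20271 genes then tested, 19.2%, 24.9% and 29.8% were likewise apart in those directions. CLO1 is in each of these counts of the set but was not among the genes tested. The numbers called were then 5 higher in sr45a than in WT, where 1.08% of tested genes were called higher, and 3 higher in SR45a-1a-OE than in WT (OLEO1, OLEO2 and EM6), where 10.7% were. In SR45a-1a-OE against sr45a 3 were called lower (OLEO1, EM1 and PAP85), where 10.4% of tested genes were. M17 was no longer called in SR45a-1a-OE against sr45a. The OLEO2 call in sr45a against WT was lost when replicate 1 or 2 of sr45a or of WT, or SR45a-1a-OE replicate 1, was left out.

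Within sr45a the 9 genes did not move together from library to library. Divided by its mean over the 3 sr45a libraries, replicate 3 stood at 0.543 for OLEO1, 0.454 for OLEO2, 0.5 for OLEO4, 0.282 for CLO1, 0.426 for PAP85 and 0.548 for EM6. The same library stood at 1.05 for EM1, 1.21 for M17 and 1.08 for ABI3, so it was low for the oil body genes, the globulin and EM6 and not for the other three. The level in replicate 1 over that in replicate 3 was 3.88 for OLEO2, 3.86 for PAP85, 2.79 for OLEO1 and 2.45 for EM6, against 1.12 for EM1, 0.899 for M17 and 0.765 for ABI3. Outside sr45a, counts allowed this ratio for few of the genes, and it was above 1 for some and under 1 for others. In SR45a-1a-OE this ratio was 2.77 for OLEO2, 2.4 for EM6 and 1.25 for OLEO4. In WT it was 1.71 for EM6, 0.795 for OLEO4 and 0.477 for ABI3. For OLEO2 in WT, at 2, 1 and 15 counts, no ratio was formed. The FPKM of EM6 over that of EM1 was 3.68, 4.53 and 1.67 in sr45a replicates 1, 2 and 3. The FPKM of PAP85 over that of OLEO2 stayed at 0.712, 0.905 and 0.714 in the same libraries, so these genes kept nearly the same ratio while their levels differed. Replicate 3 is also the sr45a library that stood apart over all genes, and its part in these values was not tested.

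**Figure D2:**
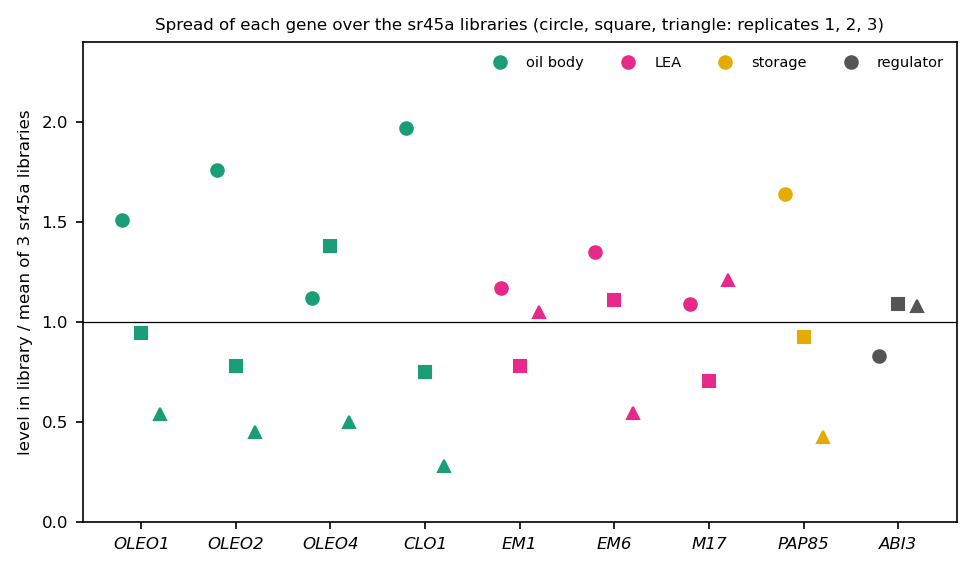
Level of each gene in sr45a replicate 1 (circle), 2 (square) and 3 (triangle), divided by its mean over the 3 sr45a libraries (vertical axis, no unit), coloured by role. The triangles lie between 0.282 and 0.548 for the 4 oil body genes, EM6 and PAP85, and between 1.05 and 1.21 for EM1, M17 and ABI3.

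On the length-scaled values that the authors deposited (FPKM, corrected for gene length and depth), levels can be set between genes. In SR45a-1a-OE the order was EM6 (6.96 ± 2.89 FPKM) and OLEO2 (1.2 ± 0.528 FPKM), each range apart from the next, and then OLEO1 (0.323 ± 0.18 FPKM), M17, OLEO4, CLO1, ABI3, PAP85 and EM1, whose neighbours overlapped. In sr45a the order was EM6 (5 ± 2.04 FPKM), OLEO2 (3.48 ± 2.31 FPKM), PAP85 (2.66 ± 1.59 FPKM), EM1 (1.56 ± 0.275 FPKM), M17 (1.14 ± 0.275 FPKM) and OLEO1 (1.13 ± 0.538 FPKM). OLEO4, CLO1 and ABI3 followed at 0.367, 0.323 and 0.255 FPKM, and only OLEO1 and OLEO4 were neighbours with no overlap. In WT, EM6 stood alone at 3.62 ± 1.05 FPKM, with OLEO2 next at 0.297 ± 0.386 FPKM (all SD, n = 3). PAP85 ranked 8 of 9 in SR45a-1a-OE and 3 of 9 in sr45a, against 7 of 9 in WT. Summed over the 9 genes the level was 12.7, 9.28 and 5.64 FPKM in SR45a-1a-OE, 22.9, 15.3 and 9.51 FPKM in sr45a and 4.77, 4.56 and 3.54 FPKM in WT.

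**Figure D3:**
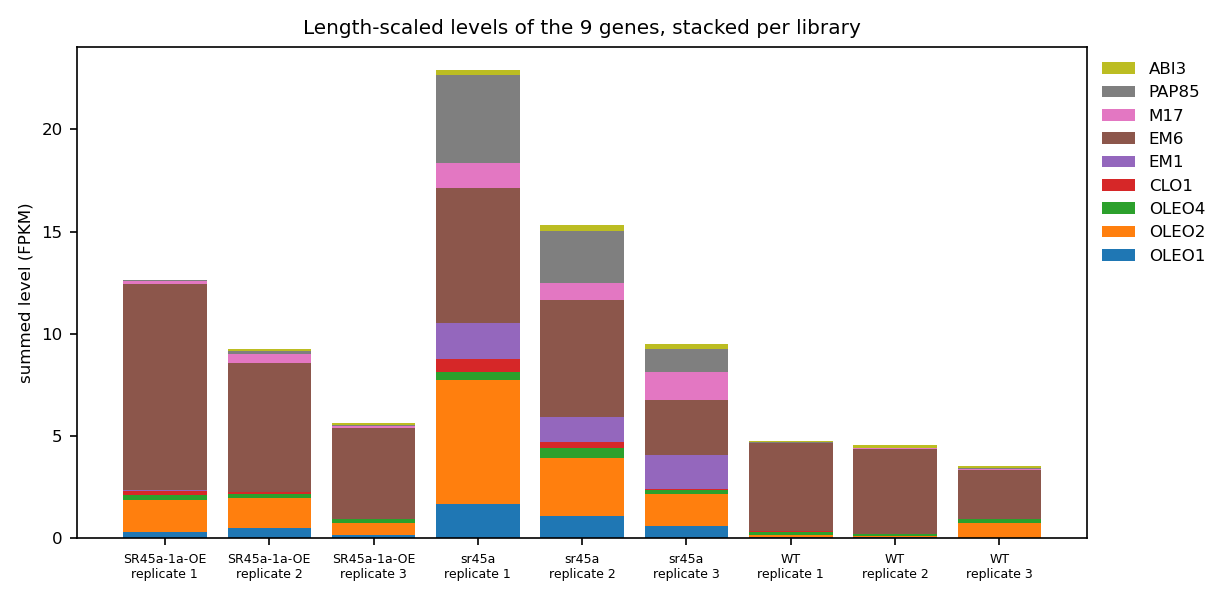
Summed FPKM of the 9 genes per library (vertical axis), each bar split by gene. EM6 makes up most of each SR45a-1a-OE and WT bar, while EM1 and PAP85 average 0.0167 and 0.0635 FPKM in SR45a-1a-OE, 1.56 and 2.66 FPKM in sr45a, and 0 and 0.018 FPKM in WT.

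Few other oleosin genes had enough counts to test. The calls in this and the following lists stand beside the shares of all tested genes that were called. Those were 0.861% higher and 0.761% lower in sr45a against WT, and 6.76% and 8.59% in SR45a-1a-OE against WT. In SR45a-1a-OE against sr45a they were 2.81% and 4.45%. Of 5 other seed oleosins, 4 were in the table and AT3G01570 alone was tested. It had 0.199, 0.231 and 0.418 CPM in the SR45a-1a-OE libraries, 1.99, 1.32 and 0.547 CPM in sr45a and 0.576, 0.138 and 0.418 CPM in WT. It was lower in SR45a-1a-OE than in sr45a (log2 −2.16, SE 0.56, adjusted p = 0.0405, edgeR) and was not called in sr45a against WT (log2 1.76, SE 0.53, adjusted p = 0.141). The call against sr45a was lost in 8 of 17 other settings. AT3G01570 passed the filter on low counts only through its sr45a libraries, so it could hardly be called lower in sr45a. OLEO3 had 11 counts in all 9 libraries. Of 9 tapetal and pollen oleosins, 4 were tested and only GRP19 was called, higher in SR45a-1a-OE than in WT (log2 2.99, SE 0.73, adjusted p = 0.0198, edgeR), with 33 counts in SR45a-1a-OE, 32 counts in sr45a and 4 counts in WT. The difference of GRP19 was much the same size for sr45a minus WT but missed the threshold (log2 3.01, SE 0.73, adjusted p = 0.0684, edgeR), and DESeq2 called 1 gene of the list there. GRP20 and AT5G07571, the most abundant of that list, were not called against sr45a or in sr45a against WT.

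Among 7 other caleosins, 2 were tested. RD20, the stress-induced caleosin of vegetative tissue, fell in SR45a-1a-OE against WT by 0.86 on the log2 scale (SE 0.21, adjusted p = 0.0184, edgeR), with 2.14, 1.8 and 2.18 CPM in the SR45a-1a-OE libraries, 3.24, 3.34 and 2.64 CPM in sr45a and 3.94, 2.99 and 4.18 CPM in WT. CLO4, a caleosin of vegetative tissue, had 8.65–9.56 CPM in SR45a-1a-OE, 8.05–9.74 CPM in sr45a and 8.6–9.84 CPM in WT. Of 13 other lipid droplet proteins, 10 were tested and 1 was called in sr45a against WT. That gene was AT2G47780, a rubber elongation factor family protein, with 1.19, 1.25 and 0.789 CPM in the SR45a-1a-OE libraries, 6.61, 7.52 and 3.33 CPM in sr45a and 0.975, 0.781 and 0.697 CPM in WT. It rose in sr45a against WT (log2 2.82, SE 0.33, adjusted p = 0.00161, edgeR) and was lower in SR45a-1a-OE than in sr45a (log2 −2.43, SE 0.32, adjusted p = 0.00226). AT1G67360, a protein of the same family and the most abundant of this list, had 537, 408 and 248 CPM in the SR45a-1a-OE libraries, 281, 262 and 355 CPM in sr45a and 245, 252 and 243 CPM in WT, and was not called in any of the 3 comparisons. The sterol dehydrogenase gene HSD2, next in level, had 142–150 CPM in SR45a-1a-OE, 133–141 CPM in sr45a and 141–149 CPM in WT.

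Among the other LEA genes, dehydrins aside, 10 rose in sr45a and 9 in SR45a-1a-OE. Of 38 listed, 23 were tested: 10 rose and 0 fell in sr45a against WT, with a median log2 difference of 1.15, and 9 rose and 0 fell in SR45a-1a-OE against WT, with a median of 0.93. The median over all tested genes was within 0.01 of 0 in both, and 0.861% and 6.76% of them were called higher. At an unadjusted p under 0.05 there were 16 and 14 of the 23, in either direction. Some of the 10 that rose in sr45a, among them AT2G42560 and AT5G44310, passed the filter on low counts only through their sr45a libraries. Such genes could hardly be called lower in sr45a. AT3G17520 was called in both, with 2.78, 3.66 and 2.18 CPM in the SR45a-1a-OE libraries, 3.79, 3.49 and 3.83 CPM in sr45a and 0.886, 0.69 and 1.21 CPM in WT. Its log2 difference was 1.99 (SE 0.27, adjusted p = 0.00365, edgeR) for sr45a minus WT and 1.63 (SE 0.27, adjusted p = 0.00492) for SR45a-1a-OE minus WT. AT2G42560 rose in sr45a too (adjusted p = 0.0028, edgeR), with 22 pooled counts in SR45a-1a-OE, 142 in sr45a and 6 in WT. LEA18 rose in sr45a (log2 1.74, SE 0.25, adjusted p = 0.00542, edgeR) and in SR45a-1a-OE (log2 0.96, SE 0.26, adjusted p = 0.0273). AT3G15670 rose in sr45a (log2 2.48, SE 0.32, adjusted p = 0.0028, edgeR). LEA4-5, AT3G02480 and SAG21, also known for induction by stress in vegetative tissue, rose in SR45a-1a-OE by log2 0.83 (SE 0.15), 1.06 (SE 0.2) and 0.63 (SE 0.13), with adjusted p-values of 0.00561, 0.00817 and 0.0118 by edgeR. AT3G02480 rose in sr45a as well (log2 1.17, SE 0.2, adjusted p = 0.0148, edgeR).

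Set directly against each other, 6 of these LEA genes were lower in SR45a-1a-OE than in sr45a and 0 were higher, with a median of −0.26. Of all tested genes, 4.45% were called lower in that comparison. The 6 include AT5G44310, with 2 pooled counts in SR45a-1a-OE and 58 in sr45a, against 3 in WT, and AT2G42560 (log2 −2.71, SE 0.48, adjusted p = 0.00873, edgeR), AT3G15670 (−1.5, SE 0.29, adjusted p = 0.014) and AT4G21020 (−1.65, SE 0.39, adjusted p = 0.0294). AT5G44310 and AT2G42560 passed the filter on low counts only through their sr45a libraries, so they could hardly be called lower in sr45a. The number that rose in sr45a against WT was 6 without sr45a replicate 1 or WT replicate 1. In SR45a-1a-OE against WT it was 4 without SR45a-1a-OE replicate 1 or WT replicate 2, and 5 without WT replicate 1 or 3. The number lower in SR45a-1a-OE than in sr45a was 2 without SR45a-1a-OE replicate 1, 1 without sr45a replicate 1 and 3 without sr45a replicate 2. Without replicate 3 of both SR45a-1a-OE and sr45a the counts were 9 higher, 13 higher with 1 lower, and 7 lower.

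Of 10 dehydrins, the LEA proteins of group 2, 8 were tested. In SR45a-1a-OE against WT 3 were called higher, where 6.76% of all tested genes were. In sr45a against WT 1 was called higher, where 0.861% were. The gene listed as LEA (AT2G21490) rose in sr45a against WT (log2 3.12, SE 0.54, adjusted p = 0.0141, edgeR), with 0.547, 0.324 and 0.139 CPM in the SR45a-1a-OE libraries, 2.45, 1.64 and 1.19 CPM in sr45a and 0.0443, 0.276 and 0.279 CPM in WT. The cold- and drought-induced LTI30 rose in SR45a-1a-OE against WT (log2 1.14, SE 0.17, adjusted p = 0.0039, edgeR), with 59.8, 45.5 and 38 CPM in the SR45a-1a-OE libraries, 19.8, 26 and 30.3 CPM in sr45a and 21, 21.6 and 22.4 CPM in WT. XERO1 and RAB18 rose with it in SR45a-1a-OE, by log2 1.97 (SE 0.44, adjusted p = 0.0139, edgeR) and 0.91 (SE 0.22, adjusted p = 0.0181). For sr45a minus WT the log2 difference of RAB18 was 0.94 (SE 0.22, adjusted p = 0.0568, edgeR) and missed the threshold. The 3 dehydrins called in SR45a-1a-OE against WT became 1 without SR45a-1a-OE replicate 1 or WT replicate 2. The gene listed as LEA was lower in SR45a-1a-OE than in sr45a (log2 −2.39, SE 0.5, adjusted p = 0.0179, edgeR), while LTI30 and ERD10 were higher in SR45a-1a-OE by log2 0.91 (SE 0.17, adjusted p = 0.0124) and 0.5 (SE 0.13, adjusted p = 0.0449). The ERD10 call was lost in 11 of 18 other settings, and the call of AT2G21490 in sr45a in 3 of them. AT2G21490 passed the filter on low counts only through its sr45a libraries, so it could hardly be called lower in sr45a.

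Most seed storage protein genes other than PAP85 rose in sr45a. Of 12 listed, 10 were tested: 9 rose in sr45a against WT and 8 were lower in SR45a-1a-OE than in sr45a, while 1 (SESA4, log2 2.34, SE 0.72, adjusted p = 0.0476, edgeR) rose in SR45a-1a-OE against WT. Of all tested genes, 0.861%, 4.45% and 6.76% were called in those directions. CRU2, CRU3, SESA1, SESA2, SESA3, SESA5, AT2G28490 and AT4G36700 passed the filter on low counts only through their sr45a libraries. Such a gene could be called higher in sr45a than in another group, but hardly lower. Summed over the 12, their level was 1.3–9.48 CPM in SR45a-1a-OE, 28.6–54.6 CPM in sr45a and 0.665–1.07 CPM in WT. CRA1, a cruciferin, had 0.845, 2.78 and 0.65 CPM in the SR45a-1a-OE libraries, 15.7, 11.7 and 11.1 CPM in sr45a and 0.443, 0.644 and 0.511 CPM in WT (sr45a minus WT log2 4.58, SE 0.44, adjusted p = 0.000439, edgeR). CRA1 was also lower in SR45a-1a-OE than in sr45a (log2 −3.16, SE 0.38, adjusted p = 0.00151, edgeR), as was AT4G36700, a cupin with 3 pooled counts in SR45a-1a-OE, 40 in sr45a and 8 in WT. The napin-type albumin SESA1 had 6 pooled counts in SR45a-1a-OE and 251 in sr45a, against 0 in WT, which makes it at least 90.9-fold higher in sr45a than in WT. SESA2 had 4 pooled counts in SR45a-1a-OE and 221 in sr45a, against 0 in WT, at least 80.0-fold higher in sr45a, and SESA5 had 16 in SR45a-1a-OE, 256 in sr45a and 1 in WT. Within SR45a-1a-OE, replicate 2 stood out for CRU3 (0, 2.64 and 0.0464 CPM) and SESA3 (0.0497, 2.04 and 0.0928 CPM), which are named after their values were seen. With the genes at 0 in a group set at such bounds, and CRU2 left out where both groups were at 0, the list's median was log2 5.45 for sr45a minus WT (7.06 as fitted), 1.42 for SR45a-1a-OE minus WT (2.91 as fitted) and −3.69 for SR45a-1a-OE minus sr45a. The number that rose in sr45a against WT was 5 without sr45a replicate 1 or 2 or WT replicate 1 and 4 without WT replicate 2, and the number lower in SR45a-1a-OE was 4 without SR45a-1a-OE replicate 1 or sr45a replicate 1. The SESA4 call was lost in 13 of 16 other settings.

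Of 11 other seed maturation genes, 7 were tested. PER1, a peroxiredoxin of the embryo and aleurone, rose in sr45a against WT (log2 3.17, SE 0.49, adjusted p = 0.00838, edgeR) and in SR45a-1a-OE against WT (log2 1.8, SE 0.54, adjusted p = 0.0427). The seed tonoplast aquaporin gene TIP3;1 rose in sr45a (log2 3.33, SE 0.62, adjusted p = 0.0219, edgeR), with 0.298, 0.694 and 0.186 CPM in the SR45a-1a-OE libraries, 2.5, 1.43 and 0.796 CPM in sr45a and 0.0886, 0.0919 and 0.279 CPM in WT. It was lower in SR45a-1a-OE than in sr45a (log2 −1.99, SE 0.54, adjusted p = 0.0454, edgeR). TIP3;1 passed the filter on low counts only through its sr45a libraries, so it could hardly be called lower in sr45a. LTI65, known also as RD29B and induced by abscisic acid, rose in SR45a-1a-OE (log2 1.28, SE 0.25, adjusted p = 0.00871, edgeR), and for sr45a minus WT its log2 difference was 1.04 (SE 0.25, adjusted p = 0.0684). The PER1 call in SR45a-1a-OE was lost in 9 of 18 other settings and the TIP3;1 calls in 4 of 17 for sr45a against WT and in 9 of 17 for SR45a-1a-OE against sr45a.

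Few of the regulators known to act above these genes were called. Of 15 seed transcription factors other than ABI3, 9 were tested and edgeR called 0 in all 3 comparisons, with 2, 2 and 3 at an unadjusted p under 0.05 for sr45a against WT, SR45a-1a-OE against WT and SR45a-1a-OE against sr45a. DESeq2 called 0, 0 and 1 of them in the same order. Without SR45a-1a-OE replicate 3, edgeR called BZIP25 higher in SR45a-1a-OE than in WT and than in sr45a, and without replicate 3 of both SR45a-1a-OE and sr45a it called 2 factors in each, BZIP25 with AGL15 against WT and BZIP25 with BZO2H1 against sr45a. LEC1, LEC2, FUS3 and ABI4 had 1, 16, 3 and 7 counts in all 9 libraries together, which is too few to compare. The most abundant of the tested factors were BZIP53, with 107–127 CPM in SR45a-1a-OE, 94.4–117 CPM in sr45a and 126–135 CPM in WT, and BZIP25, with 106–135 CPM in SR45a-1a-OE, 85.8–103 CPM in sr45a and 95.8–98.6 CPM in WT. ABI5, named for its role after its values were seen, had 1.59, 1.3 and 1.67 CPM in the SR45a-1a-OE libraries, 1.48, 2.12 and 1.79 CPM in sr45a and 1.59, 1.98 and 1.58 CPM in WT. Of 20 repressors of the seed programme, all tested, edgeR called 0 in sr45a against WT and 0 in SR45a-1a-OE against sr45a (2 and 5 at an unadjusted p under 0.05, and 0 and 1 called by DESeq2). The most abundant repressors, the chromatin remodeller BRM and the histone deacetylase HD1, had 107–138 and 90.9–103 CPM in the SR45a-1a-OE libraries, 101–131 and 92.1–104 CPM in sr45a, and 129–171 and 95.5–101 CPM in WT. FIE, a Polycomb subunit, fell in SR45a-1a-OE against WT by 0.41 on the log2 scale (SE 0.1, adjusted p = 0.0187, edgeR), a call lost in 4 of 18 other settings. It was 1 of 20 repressors called lower there, where 8.59% of all tested genes were. Without replicate 3 of both SR45a-1a-OE and sr45a, the repressor genes ASIL2 and MSI1 were called higher in SR45a-1a-OE than in WT and ASIL1 and ASIL2 higher than in sr45a. These factors and repressors are named after their values were seen.

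Of 23 genes of abscisic acid synthesis, breakdown and signalling, 20 were tested. Called were 1 lower in sr45a against WT, 1 lower in SR45a-1a-OE against WT and 2 higher in SR45a-1a-OE than in sr45a. The shares of all tested genes called in those directions were 0.761%, 8.59% and 2.81%. The bZIP gene ABF2 fell in sr45a against WT by 0.65 on the log2 scale (SE 0.14, adjusted p = 0.0482, edgeR), and CYP707A1, an abscisic acid 8′-hydroxylase, fell in SR45a-1a-OE against WT by 0.45 (SE 0.12, adjusted p = 0.0293). AFP1 and AFP3, which encode partners of ABI5 that restrain it, were higher in SR45a-1a-OE than in sr45a by log2 0.76 (SE 0.19, adjusted p = 0.0331, edgeR) and 0.67 (SE 0.18, adjusted p = 0.0439). Of 18 other settings, the call was lost in 12 for ABF2, 6 for CYP707A1, 7 for AFP1 and 11 for AFP3.

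**Figure D4:**
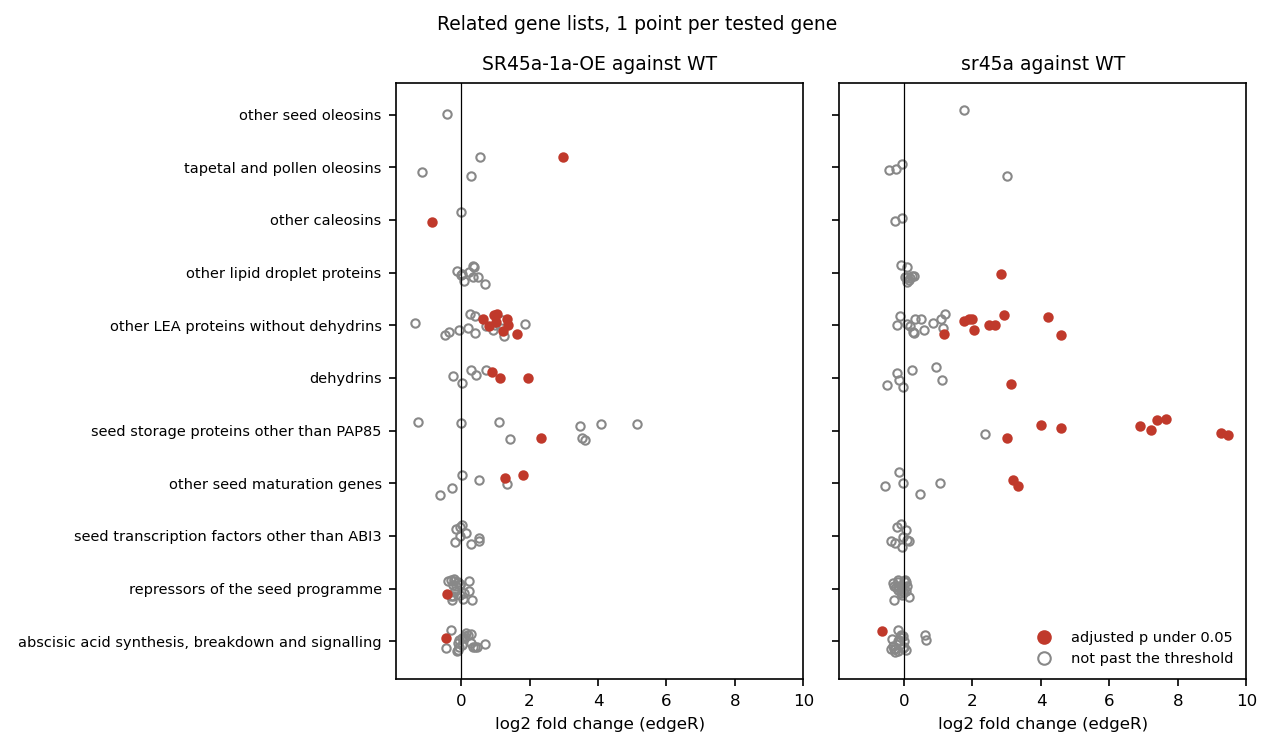
Log2 fold change from edgeR (horizontal axis) of each tested gene of 11 related lists, for SR45a-1a-OE against WT (left) and sr45a against WT (right), filled where the adjusted p was under 0.05. Of the 10 tested seed storage genes 9 were called in sr45a, and filled LEA points lie right of 0 in both panels; fitted values of genes near 0 counts in WT depend on the prior count.

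Markers of other organs were set beside these values. Of all tested genes, 6.76% were called higher and 8.59% lower in SR45a-1a-OE against WT. Of 7 root markers, all tested, PHT1;1 fell in sr45a against WT (log2 −0.68, SE 0.13, adjusted p = 0.0265, edgeR), and 2 rose and 3 fell in SR45a-1a-OE against WT. Those that fell were PHT1;1 (log2 −0.75, SE 0.13, adjusted p = 0.00605, edgeR), PRP3 (−0.95, SE 0.2, adjusted p = 0.0123) and PRP1 (−0.98, SE 0.24, adjusted p = 0.0218); for sr45a minus WT the value of PRP1 was −0.94 (SE 0.25, adjusted p = 0.0878). MRN1 rose (log2 1.47, SE 0.34, adjusted p = 0.0159, edgeR). THAS1 was higher in SR45a-1a-OE than in sr45a (log2 1.61, SE 0.23, adjusted p = 0.00319, edgeR). Their sum was 179–289 CPM in SR45a-1a-OE, 184–230 CPM in sr45a and 269–292 CPM in WT. None of the 5 leaf markers, the 1 tested seed coat marker or the 2 tested flower markers was called in any comparison by edgeR. The most abundant leaf markers, RBCS1A and RCA, had 11602–13547 and 6194–7647 CPM in the SR45a-1a-OE libraries, 12691–13660 and 5098–6990 CPM in sr45a, and 9573–11193 and 5550–5746 CPM in WT. At an unadjusted p under 0.05, 1, 3 and 0 leaf markers, 0 seed coat markers and 1, 0 and 1 flower markers passed for sr45a against WT, SR45a-1a-OE against WT and SR45a-1a-OE against sr45a. DESeq2 called 1, 2 and 0 leaf markers in the same order and 0 of the others. The flower markers, of which SEP3 and PI were tested, summed to 3.75–7.38 CPM in SR45a-1a-OE, 3.58–5.24 CPM in sr45a and 4.87–9.61 CPM in WT. The part of the makeup of the seedlings in the seed gene values was not tested.

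The 8 tested genes outside the set with a mean of at least 1 CPM whose log2 profile over the 9 libraries lay closest to the mean profile of the 7 tested members had a Pearson r of 0.966 to 0.988, given as a description over 9 libraries in 3 groups. The median r over all tested genes was −0.01 and the 99th percentile 0.84. The closest was AT4G15160, a lipid transfer and 2S albumin family protein, with 12.7, 15.7 and 12.3 CPM in the SR45a-1a-OE libraries, 25.3, 23.1 and 22.4 CPM in sr45a and 8.86, 9.33 and 9.2 CPM in WT. AT1G54870, a Rossmann-fold protein, had 0.646, 0.833 and 0.464 CPM in the SR45a-1a-OE libraries, 4.76, 3.49 and 3.04 CPM in sr45a and 0.222, 0.138 and 0.232 CPM in WT. Both were apart in all 3 groups, in the order sr45a, SR45a-1a-OE, WT. The others were AT3G27240 (a cytochrome c1 family gene), CYP71B10, the cruciferin CRA1, AT1G68250, the LEA gene AT3G15670 and UBC20. AT1G68250, whose product is unnamed, had 0.0994, 1.2 and 0 CPM in SR45a-1a-OE, then 5.92, 3.28 and 2.19 CPM in sr45a, against 0 CPM in every WT library.

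Among the 7 tested genes of the set, the log2 profiles over the 9 libraries were closest for EM1 and PAP85 (r = 0.96), OLEO1 and M17 (0.91) and M17 and PAP85 (0.9), and OLEO1 and OLEO2 reached 0.86. EM6 was the least like the rest, with r between −0.4 (with ABI3) and 0.46 (with OLEO1). These values describe 9 libraries that share 3 genotypes, so each r includes the differences between groups.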

How the data were processed

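Whole-seedling RNA was sequenced as 150-bp paired-end reads on a NovaSeq 6000 and filtered with fastp to at least 36 bp, per the labels' protocols. Which aligner, counting program, strand setting, genome build and annotation were used is not given in the sources used here. The authors deposited, per gene and library, whole-number counts and FPKM, and per transcript an estimated count and an FPKM. The deposited estimated counts are on a larger scale than the gene counts, 3.786 to 3.871 to 1 in sum, and were compared only with each other. Of 26968 loci compared, 26961 had the same start and end as in TAIR10.1, and symbols were matched by locus to its RefSeq annotation. Promoter bases were read from that genome for 8 of the 9 genes; those of OLEO2 are not reported here.

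Groups came from the labels. From the counts, edgeR 4.0.16 in R 4.3.3 was run with TMM factors (0.935 to 1.048), filterByExpr (minimum count 10, minimum total 15) and a quasi-likelihood fit of all 9 libraries. It tested 20103 genes, with Benjamini-Hochberg adjustment over all of them and a threshold of 0.05. A gene with few counts in the other groups passed the filter only if it was high in 1 group. Such a gene could hardly be called lower in that group. The SE printed with an edgeR difference is the absolute log2 difference divided by the square root of its F statistic. It was not estimated separately, and near 0 counts it depends on the prior count as the difference does. CPM were scaled by the TMM factors. Pooled ratios have 95% exact binomial intervals, and 0 counts in a group were set against a floor of 3 counts over its 3 libraries. Intervals and floors cover counting error only, since the reads carry no stated molecular identifiers. Within a genotype, libraries differed by more than sampling noise (chi-square per gene 5.15 to 39), so none was merged. Same-numbered libraries did not deviate together, so replicate numbers were not used as pairs. The fits kept 43 genes that lack a locus identifier, which are named nowhere. The fit was tested on simulated data.

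The 9 loci, the 11 related lists (163 genes) and the 4 marker lists (21 genes) were chosen with earlier results of these data known. From each list and comparison the 4 called genes with the smallest p are named, and otherwise the 2 tested genes of highest level. The 8 genes most like the set were named by correlation. The alternatives were a fit with DESeq2 1.42.0, edgeR with DESeq2 size factors, leaving every gene in, asking for 1 CPM in 3 libraries, a fit of only the 6 libraries of the pair, a block for the replicate number, limma 3.58.1 on log2(FPKM + 1) and log2(FPKM + 0.1), and leaving out each library, with 2 left in its group. Leaving out replicate 3 of both SR45a-1a-OE and sr45a was added after the data were seen. Tables and figures used Python 3.11.15, pandas 2.3.3, scipy 1.17.1 and matplotlib 3.10.9.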

Additional observations from a re-analysis of the deposited data

How the results depend on the processing

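No difference of a named gene that passed the threshold changed sign under any alternative that could be fitted. For the 9 seed genes this too is a description only. Of the named genes called in the related and marker lists, 9 of 14 for sr45a against WT, 7 of 18 for SR45a-1a-OE against WT and 6 of 17 for SR45a-1a-OE against sr45a were called under every alternative. Genes called in sr45a against WT numbered 326, but 727 with DESeq2, 532 with only the 6 libraries compared and 193 with the replicate block. For SR45a-1a-OE against WT they numbered 3084, but 1842 with the replicate block. For SR45a-1a-OE against sr45a they numbered 1459, but 2220 with DESeq2, 557 with only the 6 libraries compared, 575 with the replicate block and 4160 without replicate 3 of both SR45a-1a-OE and sr45a. Of the 9 seed genes, 5 were called in sr45a against WT, but 3 with the filter of 1 CPM, which leaves fewer genes tested. In SR45a-1a-OE against WT 1 was called, but 0 with the filter of 1 CPM, 2 with DESeq2, 0 with only the 6 libraries compared, 2 with the replicate block, 0 with limma on log2(FPKM + 1) and 3 without replicate 3 of both SR45a-1a-OE and sr45a, where all genes called numbered 4524. List genes called without those libraries numbered 41 for SR45a-1a-OE against WT (19 in the main test) and 35 for SR45a-1a-OE against sr45a (22 in the main test). Where the alternative's own construction does not show the cause, the cause was not tested.

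Leaving out 1 library at a time, the genes called ranged over 106–484 for sr45a against WT, 975–3944 for SR45a-1a-OE against WT and 270–2653 for SR45a-1a-OE against sr45a. The seed genes called ranged over 4–5, 0–2 and 2–4 in the same order, and the list genes called over 12–30, 6–33 and 6–29. The replicate numbers share only a number: deviations of same-numbered libraries correlated at −0.331 to 0.186, and the block changed the numbers of calls as given above. CLO1 was fitted only with every gene left in (log2 4.11 for sr45a minus WT, SE 1.23, adjusted p = 0.125, edgeR). With 1 to 3 counts in WT, a ratio can shift severalfold by counting error alone, which limits M17, PAP85, OLEO1 and CLO1, and EM1, at 0 counts in WT, has a bound only.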
